A study of Mus musculus with 16 samples.

Results

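The genes described here are the 3 members of the TET family, Tet1, Tet2 and Tet3, and what was measured at them is chromatin accessibility. Of the 80565 consensus regions found in 16 ATAC-seq libraries of mouse cells, 22 belonged to these genes: 11 to Tet1, 6 to Tet2 and 5 to Tet3. A region was built from the 50000 peak intervals with the highest −log10 p in each library, merged over libraries where windows of 150 bp on either side of their summits met, and kept where at least 2 libraries held it. It was given to a member when the nearest start site (TSS) of a protein-coding transcript lay within 100 kb and was that of the member. Each library held 11 to 17 such intervals, of which Tet1 took 4 to 9, Tet2 3 to 5 and Tet3 3 to 6.

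The study followed mouse embryonic stem cells (ESCs) of a B6 × 129S6 cross that were driven towards anterior neural progenitors in medium with basic fibroblast growth factor, and sampled them on day 2 and day 3. The untreated groups were WT (lines WT70 and WT72), Tet1 MUT (CM59 and CM69) and Tet1 KO (KO1 and KO15, the Tet1 tm1Koh allele), each on both days, and the treated groups were WT cells with 3 μM CHIR, a Wnt activator (WT7 and WT34), and KO cells with 5 μM XAV, a Wnt inhibitor (KO1 and KO15), both collected on day 3 after 24 h. This gave 8 groups of 2 libraries from 8 lines. All lines are labelled with the tm1Koh cross they derive from, and the MUT lines are clones edited in WT7, so their 2 libraries a day do not carry the spread between independent derivations. Mock-transfected clones of WT7 exist in the study as well, and whether WT70 and WT72 are among them is not stated in the labels. The CHIR-treated lines are not the untreated WT lines, so that line and treatment cannot be told apart there. The same 2 KO lines supplied all 6 KO libraries.

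TET proteins are dioxygenases that oxidise 5-methylcytosine in DNA, a step that leads to its removal either by dilution at replication or through base excision repair. Mouse ESCs mainly use TET1 and TET2, while TET3 is best known from the oocyte and from differentiating neural cells. TET1 and TET3 have a CXXC zinc finger that binds CpG-rich DNA in their full-length forms, which TET2 lacks. The accessibility of a gene's promoter and of the elements around it is a readout of its chromatin and not of its transcript level.

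The MUT lines carry a designed change in Tet1 itself, and its design is shown here. No sequence of a MUT line was read here, and other differences between MUT and WT DNA were not analysed. All 3 genes lie on the minus strand of the mm10 (GRCm38) assembly. The guide matched the plus strand at chr10:62814460-62814479, inside a coding exon of Tet1 (chr10:62814436-62814573, exon 11 of Tet1-206 and exon 9 of Tet1-201), and is printed with the 3 bases that follow it in the genome, the PAM, in capitals. The repair donor covered chr10:62814427-62814521 on the same strand, and capitals in the donor and in the reference mark the bases that differ.
Guide with PAM: gtgaatgtccttgtgagaatGGG
Reference: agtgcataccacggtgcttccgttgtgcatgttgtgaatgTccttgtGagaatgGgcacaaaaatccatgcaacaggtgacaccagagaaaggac
Donor: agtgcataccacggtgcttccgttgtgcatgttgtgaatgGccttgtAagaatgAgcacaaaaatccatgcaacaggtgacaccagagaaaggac
Counted from 1 at the 5′ end of the donor, with the reference base first, the differences are T41G, G48A and G55A. Read on the coding strand in Tet1-206, they give D1654A, H1652Y and a codon 1649 that encodes alanine with either base. In the shorter Tet1-201 the same changes are D1622A and H1620Y. Both fall in the catalytic part of the protein, and the histidine and aspartate are ligands of the iron that the enzyme needs. No library had a deposited peak on this exon (0 of 16), so the assay gave no reading of accessibility at the edited site. Primers 7F and 10R, listed for typing the tm1Koh allele, both matched the reference genome. They span chr10:62879921-62880110, a stretch that holds the start site of Tet1-201 (chr10:62880014). Which allele their product reports was not analysed here, and a further primer listed for this allele was not placed.
Primer 7F: ttggcaacacctccagatt
Primer 10R: gctttgatgtcttcgtcttcatc
The study's supplement speaks of an insertion in the tm1Koh allele, and its coordinates, and whether bases are missing beside it, were not analysed here.

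The 3 promoters are printed next, in the direction of transcription, since a peak lay on each of them in every library. They are the RefSeq promoters of GRCm38.p6 (250 bases before the start and 50 after it): chr10:62887275-62887574 for Tet1, chr3:133544341-133544640 for Tet2 and chr6:83441629-83441928 for Tet3. Capitals mark matches, on either strand, to GGGCGG, which SP and KLF factors bind, and to AGGGGGC, a core of the CTCF site, 2 motifs that overlap each other at Tet2 and at Tet3.
Tet1: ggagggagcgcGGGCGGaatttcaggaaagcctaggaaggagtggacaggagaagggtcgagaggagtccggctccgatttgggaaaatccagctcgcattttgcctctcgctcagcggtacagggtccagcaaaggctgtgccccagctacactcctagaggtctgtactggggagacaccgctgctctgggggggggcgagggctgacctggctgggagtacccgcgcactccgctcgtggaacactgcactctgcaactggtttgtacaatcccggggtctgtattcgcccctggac
Tet2: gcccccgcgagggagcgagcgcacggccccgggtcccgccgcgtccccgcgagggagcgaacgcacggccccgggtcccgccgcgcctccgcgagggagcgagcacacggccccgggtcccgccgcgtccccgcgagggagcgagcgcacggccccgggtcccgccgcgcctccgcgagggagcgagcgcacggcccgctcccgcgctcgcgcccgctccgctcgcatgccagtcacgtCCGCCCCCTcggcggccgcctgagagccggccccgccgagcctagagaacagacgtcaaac
Tet3: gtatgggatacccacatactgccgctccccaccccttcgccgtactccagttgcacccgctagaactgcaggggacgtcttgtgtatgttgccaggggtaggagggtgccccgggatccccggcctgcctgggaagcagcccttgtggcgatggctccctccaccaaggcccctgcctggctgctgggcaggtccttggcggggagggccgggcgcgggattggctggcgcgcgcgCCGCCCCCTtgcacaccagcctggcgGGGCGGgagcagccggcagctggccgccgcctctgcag
The Tet2 promoter held 57 CpG dinucleotides in 300 bases, that of Tet3 22 and that of Tet1 17. GGGCGG was found in 35.7% and AGGGGGC in 10.6% of the 32851 RefSeq promoters of this length, so that a match at Tet1, Tet2 or Tet3 is a description of these letters and not of a factor bound there.

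Depth and quality differed between libraries, and depth differed by day. A library listed 135359 to 219047 different intervals, and the −log10 p at rank 50000 ran from 6.84, in KO day 3 replicate 2, to 21.8. It was 9.93 to 21.8 over the untreated day 2 libraries and 6.84 to 12.8 over the untreated day 3 libraries. In each untreated line the day 2 list was longer, and its −log10 p at that rank higher, than on day 3. The promoters of all 8 pluripotency and epiblast markers were open in every library, Pou5f1 and Sox2 among them. Of 5 neural marker promoters 3 were open in both KO day 2 libraries, 5 in both WT day 2 libraries and 4 to 5 in the rest. Of 5 primitive streak marker promoters 4 to 5 were open in a library, and of 8 feeder fibroblast marker promoters 4 to 5, with Col3a1, Postn and Lum open in none. Each list thus had open promoters in every library, and in bulk samples more open cells and more accessibility per cell cannot be told apart.

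In the text below a region is called by its gene and by the distance in bp of its summit from the nearest start site, negative upstream. "Open" means that 1 of a library's top 50000 intervals overlapped the region, and column 7 is the fold enrichment over background that the peak caller gave to the highest deposited peak there. Of the 22 regions, 10 were open in all 16 libraries and 12 were not. The constant ones were 3 of 11 at Tet1, 4 of 6 at Tet2 and 3 of 5 at Tet3. Of 9 regions within 3 kb of a start site 6 were open throughout, and of 13 farther away 4 were. Introns held 15 of the 22. The shares of all regions that were open throughout, near a start site or farther away, or that lay in introns, were not counted. These counts therefore stand without a background. The regions near a start site had a median of 20 CpG dinucleotides in the window around the summit and the others 3, beside 19 and 4 over all regions of these 2 kinds.

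**Figure D1:**
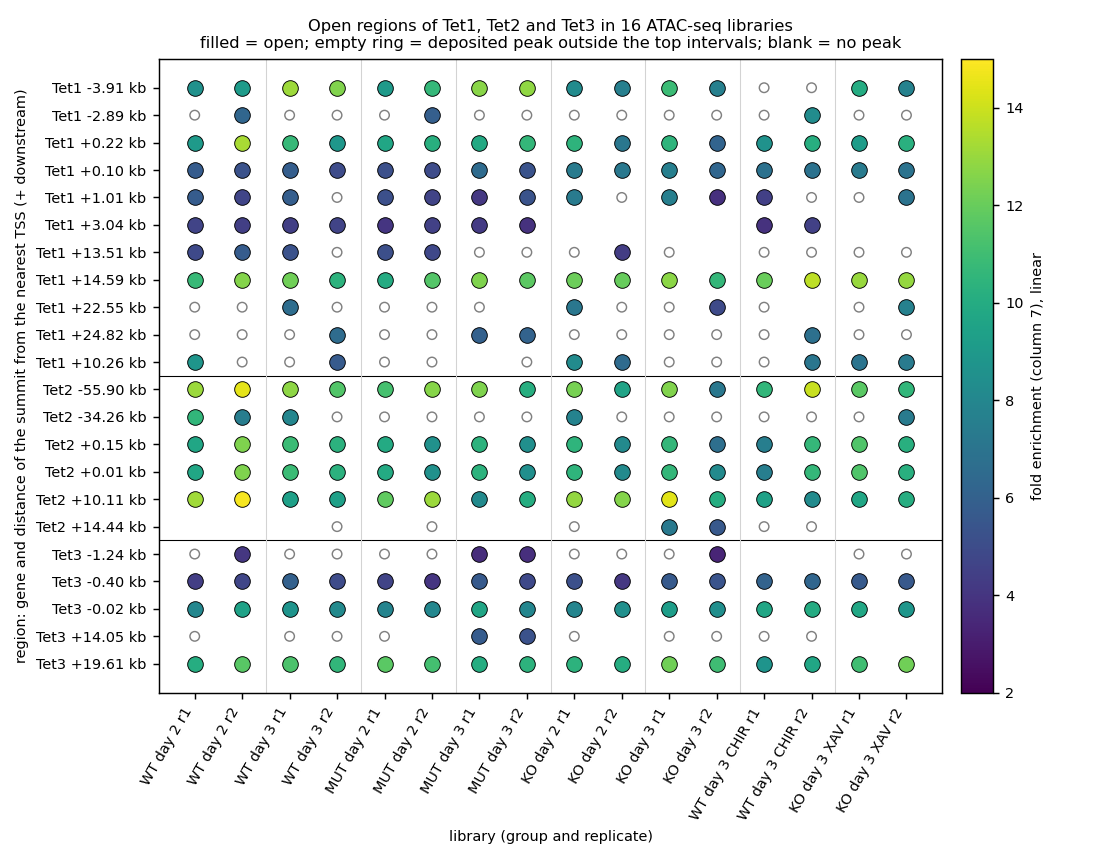
The 22 regions (rows, from 5′ to 3′ in each gene, named by the distance in kb from the nearest start site) in the 16 libraries (columns), with the colour giving column 7 where a region was open, a ring a deposited peak below the top 50000 and a blank no deposited peak. Unbroken rows are the 10 regions open in every library, and the Tet1 row at 3036 bp is blank in the 6 KO libraries.

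At Tet1, the promoter region Tet1 +100 (chr10:62886826-62887595, over the first exon of Tet1-207) was open in all 16 libraries. Its column 7 was 5.73 and 5.26 in WT day 2, 5.82 and 4.99 in WT day 3, 5.19 and 4.95 in MUT day 2, and 6.51 and 5.32 in MUT day 3. The KO libraries gave 7.35 and 7.23 on day 2, 7.57 and 6.25 on day 3, and 7.35 and 6.94 with XAV, and the CHIR-treated WT libraries 6.84 and 6.89. Both KO groups lay above both WT groups of untreated cells, whereas the CHIR-treated WT and the higher MUT day 3 library fell among the KO values. In limma, on log2 column 7 centred on each library's median, the KO minus WT difference was 0.48 ± 0.18 (SE) on day 3 (limma adjusted p = 0.241 over 56512 regions) and 0.50 ± 0.18 on day 2 (limma adjusted p = 0.918), so neither passed.

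The promoter of the Tet1-209 transcript (Tet1 +221, chr10:62892577-62892930) and an intron region in the gene body (Tet1 +14589, chr10:62865248-62865584) were also open in all 16 libraries. Tet1 +14589 had the highest median of the gene's regions, with column 7 between 9.97 and 13.7 (median 12.1), and it ranked 1231 to 5649 among a library's intervals. Column 7 of Tet1 +221 ran from 6.15 to 13.3 (median 9.99). Neither passed the limma test in any of the 7 comparisons.

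Several weaker regions in the gene body changed state between libraries of the same group. Tet1 +1010 (chr10:62886143-62886479), beside the promoter, was open in 12 libraries, 4 of them KO, and formed 1 interval with it in some. Tet1 +13506 (chr10:62866321-62866676) was open in 6, namely both WT and both MUT libraries of day 2, WT day 3 replicate 1 and KO day 2 replicate 2, with column 7 between 3.16 and 5.72 wherever a peak was listed. Tet1 +22554 (chr10:62857289-62857633) was open in 4, WT day 3 replicate 1 and 3 KO libraries, at 2.80 to 7.65. Tet1 +24818 (chr10:62855022-62855379) was also open in 4, namely WT day 3 replicate 2, both MUT day 3 libraries and CHIR replicate 2. No KO library had it open, and its column 7 lay between 2.49 and 6.73 over all libraries.

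The intron region Tet1 +3036 (chr10:62884128-62884462, summit 3036 bp into Tet1-207) divided the libraries by line. It was open in all 10 libraries of WT and MUT lines and in none of the 6 of KO lines. Its ranks in those 10 libraries were 31346 to 48341, in the lower part of the top 50000. With the top 30000, or ranked by column 7, it was open in no library. Column 7 was 4.63 and 4.43 in WT day 2, 4.43 and 4.63 in WT day 3, 4.02 and 4.52 in MUT day 2, 4.26 and 3.84 in MUT day 3, and 3.84 and 4.53 in CHIR-treated WT. The 6 KO libraries listed no peak there at all, of any strength, with or without XAV. The 300 bases around the summit, chr10:62884138-62884437 on the plus strand, are printed because no other Tet region divided the lines in this way.
Tet1 +3036: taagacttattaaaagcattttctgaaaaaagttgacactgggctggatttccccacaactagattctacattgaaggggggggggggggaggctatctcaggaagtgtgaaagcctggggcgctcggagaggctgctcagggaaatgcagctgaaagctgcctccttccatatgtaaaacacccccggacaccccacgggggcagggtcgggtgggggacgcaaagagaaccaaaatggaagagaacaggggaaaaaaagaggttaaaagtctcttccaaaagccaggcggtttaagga
It held 7 CpG dinucleotides and no match to any of the 8 motifs searched, so it has no capitals. Of all 80565 regions, 3 were open in the 10 libraries of the other lines and in none of the 6 of KO lines (0.00372%), and Tet1 +3036 was the only 1 of these without a deposited peak in a KO library (0.00124%). Of the other 2, 1 was nearest to Aldh8a1, an aldehyde dehydrogenase gene, at 50934 bp from its start site and with a mean column 7 of 11.4 in the other lines, beside 4.31 for Tet1 +3036, and 1 had no start site within 100 kb. In the opposite pattern, 2 regions were open in KO lines only, none of them at a TET gene.

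The wider stretch between the genotyping amplicon and the promoter peak (chr10:62880111-62885984, 5874 bp, chosen after the values were seen) contains Tet1 +3036 and some weaker intervals. Counting intervals of any strength that did not overlap Tet1 +3036, WT day 2 libraries listed 3 and 2 there, WT day 3 1 and 0, MUT day 2 4 and 2, MUT day 3 3 and 3, and CHIR-treated WT 1 and 1. All 6 KO libraries listed 0, as did 1 of the 10 others, WT day 3 replicate 2. With Tet1 +3036 counted, the 10 libraries listed 1 to 5 and the KO libraries 0. The highest column 7 in the stretch was between 3.84 and 4.63 in a library. Over the genome, KO libraries listed 135359 to 219047 intervals (median 166780) against 137960 to 176686 (median 157674) in the other lines. The lines differ in the Tet1 allele here, and whether the tm1Koh chromosome still holds these bases was not measured.

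**Figure D2:**
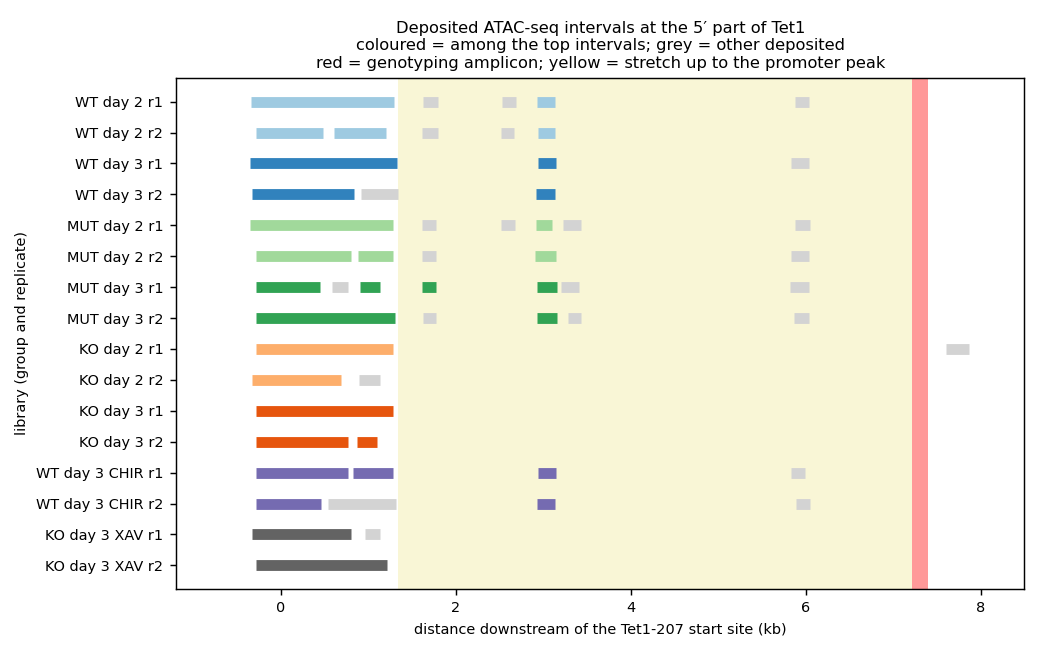
Deposited intervals of each library (rows) against the distance in kb downstream of the Tet1-207 start site; coloured bars are among the top 50000 of the library, grey bars are not, the red band is the genotyping amplicon and the yellow band the stretch up to the promoter peak. The 6 KO rows have no bar in the yellow band, and the 10 other rows have 1 to 5.

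Upstream, Tet1 -3908 (chr10:62902842-62903203) lies in an intron of Tet1-208, between the start sites of Tet1-208 and Tet1-206. It was open in every library but the 2 with CHIR. Column 7 was 8.53 and 9.11 in WT day 2, 13.1 and 12.6 in WT day 3, 9.02 and 10.7 in MUT day 2, 12.7 and 12.8 in MUT day 3, 8.23 and 7.57 in KO day 2, 10.9 and 7.62 in KO day 3, and 10.0 and 7.75 in XAV-treated KO. The CHIR-treated WT libraries gave 2.59 and 3.81, at ranks 137714 and 92301, and did not overlap with any other group. The state of being open in all libraries but those with CHIR was shared by 2.08% of all regions. Its sequence is printed, chr10:62902876-62903175 on the plus strand, because of this pattern; capitals mark GGAATG (bound by TEAD factors) and ATGCAAA, read on the minus strand (bound by OCT factors such as POU5F1).
Tet1 -3908: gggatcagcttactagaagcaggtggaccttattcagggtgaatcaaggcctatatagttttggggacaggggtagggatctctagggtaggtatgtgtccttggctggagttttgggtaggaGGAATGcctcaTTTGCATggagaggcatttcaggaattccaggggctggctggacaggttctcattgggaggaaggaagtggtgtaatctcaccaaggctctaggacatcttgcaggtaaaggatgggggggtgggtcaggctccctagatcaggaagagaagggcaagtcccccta
These 300 bases held no CpG dinucleotide and no match to CTTTGAN, the letters that TCF and LEF factors bind. A GGAATG was present in 18.5% of all regions, an ATGCAAA in 6.23% and a CTTTGAN in 18.9%. Of the 22 Tet regions 6 held a CTTTGAN, the neighbouring Tet1 -2894 among them.

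With CHIR, the limma difference at Tet1 -3908 was -1.96 ± 0.18 (log2, SE, adjusted p = 1.45e-06), or 0.258 of the WT day 3 level. The neighbouring region Tet1 -2894 (chr10:62901819-62902191) rose by 1.03 ± 0.25 (adjusted p = 0.0109): its column 7 was 3.99 and 2.67 in WT day 3 and 4.86 and 8.26 with CHIR. These 2 were the only called regions of 15 tested at TET genes, in a comparison that called 10.9% of all 56512 regions. The call of Tet1 -2894 was lost without CHIR replicate 2 (0.69, adjusted p = 0.171) and without WT day 3 replicate 2 (0.85, adjusted p = 0.117).

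Between day 2 and day 3 of the untreated cells (6 libraries and 6 lines on each day), limma called 5 of the 15 Tet regions, beside 12.2% of all regions. The day 2 lists were the longer ones in every line, and those of replicate 2 are named as merged. Only the library median was adjusted for, so day and depth cannot be told apart here. Of the Tet1 regions, the upstream Tet1 -3908 rose by 0.46 ± 0.10 (adjusted p = 0.00608) and Tet1 +24818 (chr10:62855022-62855379), in an intron of the gene body, by 0.67 ± 0.14 (adjusted p = 0.00468), while Tet1 -2894 fell by 0.51 on the log2 scale (SE 0.15, adjusted p = 0.0288). At Tet2, the intron region Tet2 +10105 fell by 0.28 (SE 0.09, adjusted p = 0.0412). At Tet3, the region Tet3 -403 at the start of Tet3-203 rose by 0.36 ± 0.11 (adjusted p = 0.0372). Column 7 of Tet1 +24818 was 2.49 and 4.12 in WT day 2 against 5.40 and 6.56 in WT day 3, 3.51 and 3.55 against 5.97 and 6.07 in MUT, and 4.38 and 3.46 against 4.56 and 3.67 in KO, so that the days did not overlap in WT or MUT and did in KO. That of Tet3 -403 was 4.35 and 4.70 against 6.01 and 4.95 in WT, 4.64 and 3.99 against 5.64 and 4.86 in MUT, and 5.18 and 4.10 against 5.63 and 5.35 in KO, with each line higher on day 3. The first 2 calls held without any 1 of the 12 libraries. The other 3 did not: the adjusted p rose to as much as 0.104 for Tet1 -2894 (without MUT day 3 replicate 1), 0.137 for Tet2 +10105 (without MUT day 3 replicate 1) and 0.107 for Tet3 -403 (without MUT day 2 replicate 2). The call of Tet1 -2894 was also lost without WT day 2, WT day 3 or MUT day 2 replicate 2, or KO day 2 or day 3 replicate 1. That of Tet2 +10105 was kept only without WT day 3 replicate 2, MUT day 3 replicate 2, KO day 2 replicate 1 or KO day 3 replicate 1. That of Tet3 -403 was kept only without MUT day 2 replicate 1, MUT day 3 replicate 2 or KO day 3 replicate 1. With the cell line as a block, which pairs the 2 days of a line, another region passed, Tet2 -34259 (-0.60, adjusted p = 0.0429, against 0.0831 without the block).

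**Figure D3:**
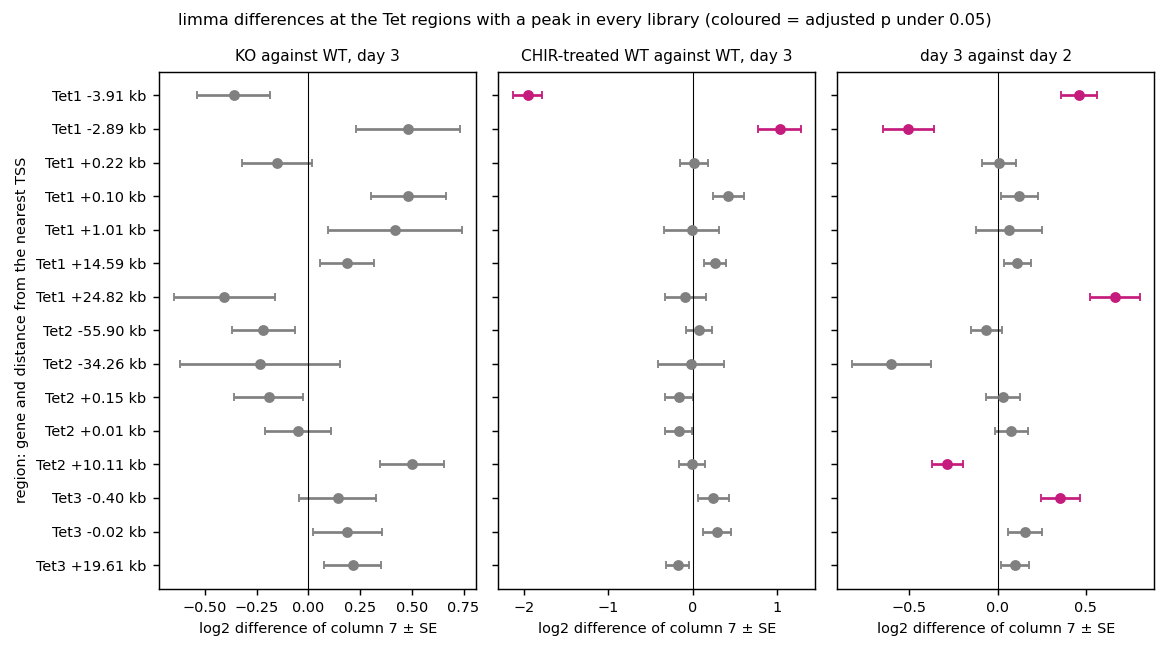
Differences in log2 column 7 with their standard errors at the 15 Tet regions with a deposited peak in every library, for 3 comparisons, with coloured points where the adjusted p passed. In KO against WT on day 3 no point is coloured, with CHIR those at 3908 and 2894 bp upstream are, in opposite directions, and from day 2 to day 3 5 are.

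At Tet2, 4 of 6 regions were open in every library. The promoter gave 2 regions of 1 broad interval in most libraries, Tet2 +6 (chr3:133544199-133544531) and Tet2 +147 (chr3:133544829-133545155), open in all 16 libraries with a median column 7 of 10.3 at each. A region outside the gene, Tet2 -55903 (chr3:133600875-133601218), was open throughout with column 7 between 7.19 and 14.5. The intron region Tet2 +10105 (chr3:133534076-133534444) was open throughout as well, and its level differed by day: 13.2 and 14.8 in WT day 2 against 9.33 and 9.34 in WT day 3, and 11.8 and 13.1 in MUT day 2 against 8.15 and 10.1 in MUT day 3. In KO cells it was 12.9 and 12.6 on day 2 and 14.4 and 10.1 on day 3, and with XAV 9.71 and 10.1. The day 3 KO libraries both lay above both WT libraries of that day, but the difference of 0.50 ± 0.15 did not pass (limma adjusted p = 0.124), nor did the difference with XAV (-0.51 ± 0.15, limma adjusted p = 0.113). The change of the KO effect between days was not called either (0.54 ± 0.22, adjusted p = 0.682).

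**Figure D4:**
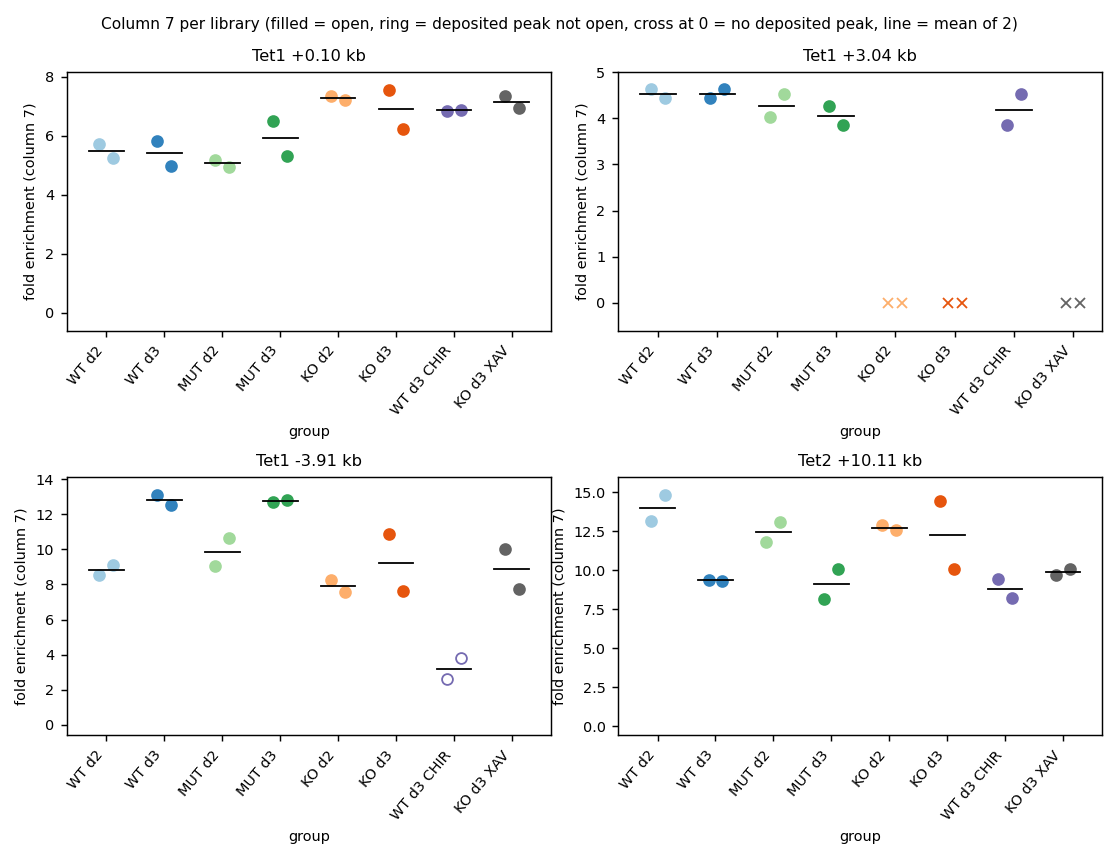
Column 7 in each library at 4 regions: the Tet1 promoter (0.10 kb), Tet1 +3036, Tet1 -3908 and Tet2 +10105, with filled points where the region was open, rings where the peak was below the top 50000, crosses where the list had no peak and a line at the mean of 2 libraries. The KO libraries have no peak at Tet1 +3036, and the 2 CHIR libraries are the lowest at Tet1 -3908, at 2.59 and 3.81.

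Beyond the 3′ end of Tet2, the region Tet2 +14438 (chr3:133461968-133462296) was open in the 2 KO day 3 libraries alone, with column 7 of 7.26 and 5.57. Such a state was found for 0.654% of all regions. It was not empty elsewhere, since 5 other libraries listed a weaker peak: 3.33 in WT day 3 replicate 2, 3.66 in MUT day 2 replicate 2, 3.34 in KO day 2 replicate 1, and 3.25 and 4.11 with CHIR. The 2 XAV-treated KO libraries, from the same lines, listed none. Tet2 -34259 (chr3:133579237-133579553) was open in both WT day 2 libraries, at 10.5 and 7.48, and in neither MUT day 2 library, at 4.05 and 5.80, but it was also open in WT day 3 replicate 1, KO day 2 replicate 1 and XAV replicate 2.

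Of the 3 Tet3 regions within 3 kb of a start site, Tet3 -22 and Tet3 -403 were open in all 16 libraries and Tet3 -1235 was not. Tet3 -22 (chr6:83441521-83441871), at the start of Tet3-202, had column 7 between 7.85 and 9.95 (median 8.61), and Tet3 -403 (chr6:83456628-83456975), near the start of Tet3-203, between 3.99 and 6.22 (median 5.27). The intron region Tet3 +19607 (chr6:83421690-83422248) was open throughout at 8.71 to 12.2. A second intron region, Tet3 +14051 (chr6:83427430-83427818), was open in the 2 MUT day 3 libraries alone, at 5.72 and 5.30, a state shared by 0.248% of all regions. The WT day 3 libraries listed it at 4.01 and 3.55, the CHIR libraries at 4.80 and 4.78, the KO day 3 libraries at 2.68 and 2.42, and the XAV libraries not at all. Its ranks were 42734 and 45210 in MUT day 3 and 51701 and 54910 with CHIR, on either side of the limit of 50000. Tet3 -1235 (chr6:83457473-83457792) sat at that limit too: it was open at 3.64 and 3.73 in MUT day 3 (ranks 49463 and 45646), and not at 3.29 and 2.85 in WT day 3, but the values of 3.86 and 3.63 in KO day 2 replicate 1 and XAV replicate 2 were not open either. Just outside the limit at Tet1, the -2894 region of WT day 2 replicate 1 had rank 50117 and column 7 of 5.36.

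By the design's 6 pairs of groups, a region was counted as gained or lost where both libraries of 1 group were open and neither of the other. On day 3, KO against WT changed 2 of the 22 Tet regions (Tet1 +3036 lost, Tet2 +14438 gained), beside 8.14% of all regions, and MUT against WT 2 (Tet3 -1235 and Tet3 +14051, both gained), beside 3.83%. On day 2, KO against WT changed 1 (Tet1 +3036 lost), beside 4.14%, and MUT against WT 1 (Tet2 -34259 lost), beside 3.34%. CHIR changed 1 (Tet1 -3908 lost), beside 20.0%, and XAV in KO cells 2, beside 9.06%: Tet2 +14438 was lost, and Tet1 +10256, beyond the 3′ end of Tet1 (chr10:62804102-62804440), was gained, from 5.80 and 4.32 to 6.99 and 7.34. Tet1 +10256 lay near the limit in KO day 3, at ranks 57055 and 52287, and was open in both KO day 2 libraries. Ranked by column 7, it was open in both KO day 3 libraries as well. With 2 libraries against 2, the smallest two-sided p of an exact permutation test is 0.333, so these counts carry no test. The comparisons on day 3 share the WT libraries or the KO libraries.

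Over column 7, limma called none of the 15 Tet regions in the 4 genotype comparisons. Only regions with a deposited peak in every library were tested. Tet1 +3036, Tet2 +14438, Tet3 -1235 and Tet3 +14051, counted above as gained or lost, were therefore not among the 15. KO against WT on day 3 called 1.37% of all regions, and 2 of 15 Tet regions had an unadjusted p under 0.05. KO against WT on day 2 called 0.00354% (2 regions), with 1 Tet region under an unadjusted 0.05. MUT against WT called 0.0% of regions on day 3 and 0.0% on day 2. Without adjustment 3167 and 1848 of 56512 regions, and 0 and 1 Tet regions, were under 0.05. XAV against untreated KO called 1.58% and no Tet region, with 2 of 15 under 0.05 without adjustment. The median difference of the 15 Tet regions was 0.14 for KO against WT on day 3, beside 0.03 over all regions, and -0.06 on day 2, beside 4e-04.

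Line means of the number of open regions were compared over all libraries of a line, so that WT7 and WT34 stand for CHIR-treated cells only and the KO lines mix both days and XAV. Lines with the KO allele had a mean of 6.00 ± 0.47 (SD, n = 2 lines) open Tet1 regions against 7.00 ± 1.05 in the 6 other lines (exact permutation test, 28 arrangements, two-sided p = 0.357, adjusted p = 0.536 over 3 genes). The same test gave 4.67 ± 0 against 4.25 ± 0.42 for Tet2 and 3.17 ± 0.24 against 3.42 ± 0.49 for Tet3 (adjusted p = 0.536 for each). Over untreated libraries alone, an alternative chosen after seeing the data, KO1 and KO15 had 6 open Tet1 regions each against 8, 7.5, 7 and 7.5 in WT70, WT72, CM59 and CM69, so that the lines did not overlap (difference -1.50, exact permutation test, p = 0.0667, the smallest that 15 arrangements allow, adjusted p = 0.20). Tet1 +3036, open in none of the KO libraries and in all others, makes up 1 region of that difference. From day 2 to day 3, the change over 6 lines was -0.67 regions for Tet1 and 0.67 for Tet3, with 3 of 6 lines in the direction of each, and 0 for Tet2 (exact sign-flip permutation tests, 64 arrangements, adjusted p = 0.563, 0.563 and 1). The smallest p these tests allow is 0.0357 and 0.0313.

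Another 40 genes of the DNA methylation pathway were counted in 5 lists: writers of 5-methylcytosine, base excision repair, partners and regulators of TET proteins, readers, and enzymes of the cofactor's metabolism. They had 199 regions, at 38 of the 40 genes. KO against WT on day 3 gained 7 and lost 9 of these (8.04%, beside 8.14% of all regions), and MUT against WT gained 4 and lost 6 (5.03%, beside 3.83%). On day 2 KO gained 2 and lost 5 (3.52%, beside 4.14%), and MUT gained 0 and lost 7 (3.52%, beside 3.34%). CHIR gained 20 and lost 8 (14.1%, beside 20.0%), and XAV gained 5 and lost 8 (6.53%, beside 9.06%). Of 160 tested list regions, limma called none in the 4 genotype comparisons or with XAV, 6 higher and 5 lower with CHIR, and 5 higher and 6 lower on day 3 than on day 2. Either is 6.88% of the list regions, beside 10.9% and 12.2% of all regions. In KO against WT on day 3, writers gained 1 and lost 4 of 42 regions (11.9%), all of them at Dnmt3a, a de novo methyltransferase gene. Regions at Dnmt3a changed in every other pair as well. There 1 was gained and 2 were lost in MUT on day 3, and 4 were gained and 2 lost with CHIR. Repair genes gained 2 (at Neil2 and Xrcc1) and lost 2 (at Smug1, a uracil DNA glycosylase gene) of 38 (10.5%). Partners gained 4, all at Cxxc5, which encodes a CXXC protein, and lost 1, at Gadd45g, of 88 (5.68%). Readers changed 0 of 18, and genes of cofactor metabolism lost 2 of 13 (15.4%), at D2hgdh and Idh2.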

How the data were processed

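Mouse omni-ATAC libraries, 2 for each of 8 groups, were read from the deposited narrowPeak lists, 1 per library. The authors ran the ENCODE ATAC-seq pipeline (trimming, alignment to mm10, removal of duplicates, peak calling), with a Tn5 shift and a p threshold of 0.01 per the file names and 1 list per library. The aligner and caller versions are not given in the sources used. The list of replicate 2 of each untreated day 2 group is named as merged. The deposited column 7 is a ratio, the fold over background, and the deposited columns 8 and 9 are −log10 p and −log10 q. Read counts were not analysed here, so that depth is known only from the numbers of peaks and their −log10 p, and fold values of weak peaks carry counting error that cannot be given. The deposited lists of the authors' own KO against WT differential regions were not used. The submitters' notes name DiffBind 3.0.15, HOMER 2 and deepTools 3.4.3 for such later steps.

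Intervals listed with several summits were counted once. The top 50000 by column 8 were kept, windows of 150 bp on either side of summits were merged, regions held by at least 2 libraries were kept, and each was given to the nearest protein-coding start site of GENCODE M21. Of 30 Tet windows 8 held a summit of 1 library only and were left out; 7 of these were open in 1 library, and the other, Tet3 +366 (chr6:83455876-83456176), was overlapped by kept intervals in all 16. Column 7 was compared with limma 3.58.1 (R 4.3.3) on log2 values minus the library median over 56512 regions with a deposited peak in every library, with all groups in 1 fit and Benjamini-Hochberg adjustment; the step was tested on simulated data. Line means of open regions were compared with exact permutation tests (Python 3.11.15). Day 2 and day 3, and KO and XAV, share cell lines; deviations of the 2 days of a line correlated at 0.0844 in WT, 0.0088 in MUT and 0.2905 in KO. Libraries of a group come from different lines or clones, and p-values measure the spread between them, which for clones of 1 parent need not be that between derivations.

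Regions were named when they lay within 3 kb of a member's start site, changed in 1 of 6 pairs, divided KO from other lines, or passed limma. The members, lists and tests were chosen with earlier results of these data known. The 8 motifs searched on both strands were ACAATGG for SOX, ATGCAAA for OCT, CTTTGAN for TCF and LEF, GGAATG for TEAD, CCGGAAG for ETS and GGGCGG for SP and KLF factors, CACGTG for the E-box, and AGGGGGC for the CTCF core. Alternatives are given at the end.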

Additional observations from a re-analysis of the deposited data

How the results depend on the processing

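Numbers of gained or lost Tet regions depended on how many intervals were kept. In the order KO and MUT against WT on day 3, KO and MUT against WT on day 2, and XAV, 0 were left in each with the top 30000 intervals, which are fewer by construction. With the top 100000 there were 8 for KO on day 3, 7 for KO on day 2, 4 for MUT on day 2, 7 for CHIR and 4 for XAV, and with all peaks of −log10 q of at least 2 there were 8 for KO and 4 for MUT on day 3, 6 for KO and 2 for MUT on day 2, 12 for CHIR and 4 for XAV. Ranking by column 7 gave 0 for KO and 0 for MUT on day 2 and 2 for CHIR. Leaving out 1 library at a time gave 2 to 5 for KO and 2 to 6 for MUT on day 3, 1 to 4 for KO and 1 to 2 for MUT on day 2, 1 to 4 for CHIR and 2 to 3 for XAV. The regions were built anew for each number or ranking of intervals, and the totals of Tet regions were not counted there. The shares of all regions that changed were not counted for these alternatives, so these numbers stand without a background. Tet1 +3036 was open in 10 libraries of other lines and in none of KO lines with the top 50000, the top 100000 and −log10 q of at least 2, and it was open in none with the top 30000 or by column 7. Differences in the number of open regions reversed for Tet1 in KO lines with the top 30000 (0.333) and by column 7 (0.667), for Tet2 in KO lines with −log10 q of at least 2 (-0.167), for Tet1 between days with the top 30000 (0.333) and by column 7 (0.667), and for Tet3 between days with −log10 q of at least 2 (-0.50). With that last setting fewer regions were open on day 3 for Tet1 (-5.67, adjusted p = 0.0469) and Tet2 (-2.67, adjusted p = 0.0469) by the exact permutation test. That setting keeps no fixed number of intervals, and every untreated line listed fewer intervals on day 3. The lists held 153617 to 219047 on day 2 and 135359 to 164351 on day 3. The change over all regions under this setting was not counted, and the cause was not tested. Leaving out 1 library at a time moved these differences from -1.40 to -0.833 for Tet1, 0.333 to 0.583 for Tet2 and -0.417 to -0.0833 for Tet3 in KO lines, and from -0.80 to -0.40, -0.20 to 0.20 and 0.40 to 1.00 between days.

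In limma, setting missing peaks to a ratio of 1 called 1 Tet region for KO on day 3 and 1 on day 2 (Tet1 +3036 both times) and 1 with XAV (Tet2 +14438). These 3 compare listed peaks with imputed values, so they restate which libraries list a peak and are no separate test. The same setting ended the calls between days of Tet1 -2894 (adjusted p = 0.0942) and Tet2 +10105 (0.0908). Using only the libraries compared left 1 with CHIR and ended the call of Tet3 -403 between days (0.0573). Leaving out 1 library at a time gave 1 to 2 Tet regions with CHIR and 2 to 5 between days, where Tet2 +10105 lost its call in 8 of 12 cases, Tet3 -403 in 9 and Tet1 -2894 in 6, while Tet1 -3908 and Tet1 +24818 kept theirs in all 12. Cell line as a replicate block was fitted for the day and XAV comparisons only. There were 6 calls between days and 0 with XAV, and the calls of the main fit between days were kept. Without read counts these lists cannot show how small a change would be detected, and absence from a list says only that no peak reached the caller's threshold.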
